A study of Homo sapiens with 9 samples.

Results

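The 38 genes described here are ATF4, its established target genes and further genes of amino acid uptake and synthesis, taken by symbol from a list of 38 among the 57500 genes counted in each library. This list was chosen with earlier results of these data known. Its shares beside those of all genes therefore describe the list and are not an independent test. The 38 genes were read in 9 RNA sequencing libraries of BJAB, an established line of human B cells whose genotype label reads Burkitt lymphoma tumor. Per the sample titles, 3 libraries came from cells stably transfected with the long version of TACI (TACI long) and 3 with the short version (TACI short). A further 3 have titles that name BJAB and no transfection (control). TACI, the product of TNFRSF13B, is a B-cell receptor for the cytokines BAFF and APRIL. The labels give all cells as untreated, and polyadenylated RNA was taken from sorted cells. The titles of the controls name the cell line alone and no vector, and the labels do not say whether a transfected line was 1 clone or a pool, or whether replicates were separate cultures. The p-values therefore rest on the spread of these libraries alone, and that spread may be technical.

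ATF4 is the transcription factor at the end of the integrated stress response. Kinases that sense missing amino acids, misfolded protein, missing haem or viral RNA phosphorylate the initiation factor eIF2alpha; this slows translation in general but favours that of ATF4 messenger RNA. ATF4, as a dimer with C/EBP proteins, then raises genes for amino acid transporters, for the synthesis of serine, glycine, asparagine and proline, for mitochondrial folate enzymes and for feedback inhibitors of the response. Lymphocytes depend on these genes when they grow, because they import and make large amounts of amino acids and 1-carbon units.

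Libraries held between 40322136 and 50079203 counts. TNFRSF13B itself had 691, 704 and 738 CPM (counts over the library total, scaled to 1e6) in TACI long, 2964, 2965 and 2655 CPM in TACI short and 28.8, 15.2 and 14.6 CPM in controls. The isoform and its amount thus differ together between the lines. All 8 B-cell markers examined were detected in each group, at a summed 3403 to 3436 CPM in TACI long, 3065 to 3200.4 CPM in TACI short and 3775 to 3899 CPM in controls. Myeloid markers, 12 in all, summed to 40.1 to 55.3 CPM in TACI long, to 67.8, 169 and 165 CPM in TACI short replicates 1, 2 and 3, and to 34.8 to 45.4 CPM in controls; S100A8 was at 0 in every group and MARCO was at 0 in TACI long and in controls. TACI short replicates 2 and 3 also had 32882 and 32209 genes with a count, against 24307 to 25938 in the other libraries. Counts of calls with TACI short under TMM scaling are therefore also given without these replicates, which leaves replicate 1 alone in that group. Equal counts with and without them need not hold the same genes. The shares over all genes given below are from fits of all 9 libraries. They are not the background of the counts without these replicates. The rises of VLDLR, GDF15 and SESN3, given below, rested on TACI short replicates 2 and 3. T and NK cell markers summed to 16.8 to 17.02 CPM in TACI long, 13.7 to 14.2 CPM in TACI short and 15.6 to 16.4 CPM in controls; CD3D was at 0 in both lines, and CD8A and KLRD1 were at 0 in TACI long and in controls. Epithelial and fibroblast markers summed to 114 to 120.4, 83.8 to 92.3 and 101 to 103 CPM in the same groups, with KRT18 at 0 in TACI long and in controls, CDH1 at 0 in TACI long and KRT8 at 0 in controls. EPCAM alone had 73.4 to 76.7 CPM in TACI short. In TACI short replicates 1, 2 and 3, COL1A1 had 3.24, 10.99 and 10.2 CPM and COL1A2 had 0.653, 3.99 and 4.11 CPM. DCN had 2.43, 2.01 and 2.44 CPM there. The higher values of replicates 2 and 3 were thus not confined to myeloid markers. Since these are bulk libraries, fewer cells of a type and less RNA per cell cannot be told apart.

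Together the 38 genes took 0.409 to 0.412% of all counts in TACI long and 0.690 to 0.711% in TACI short, against 0.535 to 0.538% in controls. The 3 ranges did not overlap. Every role group had its lowest summed CPM in TACI long and its highest in TACI short, but the spread differed: stress effectors summed to 206 to 212 CPM in TACI long, 562 to 591 CPM in TACI short and 379.6 to 384 CPM in controls. Amino acid transporters stood closer together, at 1651 to 1689, 2198 to 2303 and 2049 to 2116 CPM. These sums carry no TMM factors, which were 1.03 to 1.095 in TACI short and 0.962 to 0.979 in controls. Such factors bring TACI short nearer to the controls, and the order of these groups for the transporters rests on the library totals.

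**Figure D1:**
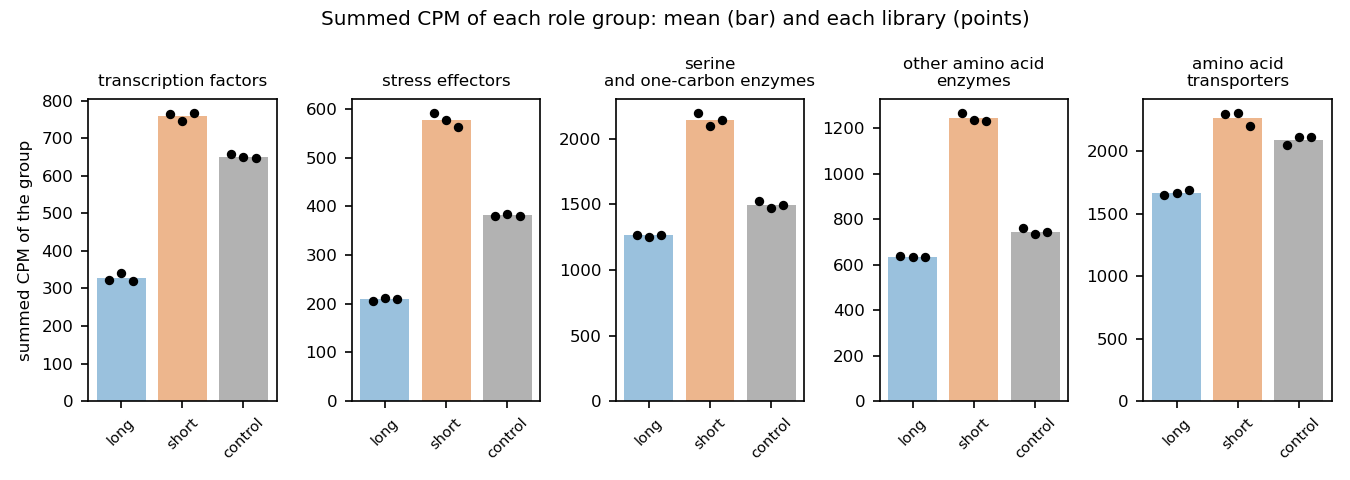
Summed CPM (y axis, counts over the library total, scaled to 1e6) of the 5 role groups in TACI long, TACI short and control libraries; bars are means and points are the 3 libraries of each group. All points of TACI long lie under, and all points of TACI short above, the points of the controls. The sums carry no TMM factors, and for the transporters the order of TACI short and controls rests on the library totals.

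In the fit over all genes (edgeR quasi-likelihood test, TMM scaling, Benjamini-Hochberg adjustment, threshold 0.05), 37 of the 38 genes passed the filter on low counts. With TACI long, 28 fell, 7 rose and 2 were not called. The 35 calls are 94.6% of the 37, while 51.1% of the 16672 genes tested were called. Lower calls made up 75.7% of the 37 and 25.9% of all genes, and higher calls 18.9% and 25.2%. In 11 of the 37 the fall was at least 1 on the log2 scale, as in 5.99% of all genes. With TACI short, 23 rose, 6 fell and 8 were not called, or 23, 5 and 9 without TACI short replicates 2 and 3. These 29 calls are 78.4% of the 37, against 62.6% of all genes; higher calls made up 62.2% of the 37 and 31.5% of all genes, and lower calls 16.2% and 31.1%. In 8 of the 37 the rise was at least 1 on the log2 scale (7 without TACI short replicates 2 and 3), as in 11.8% of all genes. By role group, 87.5 to 100% of the tested members were called with TACI long and 62.5 to 100% with TACI short. The share with TACI short was 62.5% in stress effectors and in serine and 1-carbon enzymes, near the 62.6% of all genes. In stress effectors all of these calls were higher. Of the serine and 1-carbon enzymes 37.5% were higher and 25% lower, near the 31.5% and 31.1% of all genes. Small differences are called more often in well-expressed genes. The filter of 1 CPM or more in 3 libraries kept 36 of the 37 and 12840 genes in all, and of these 12840 63.9% were called with TACI long, 72.2% with TACI short and 77.9% in TACI short against TACI long.

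The median log2 fold change of the 37 was -0.52 with TACI long and 0.37 with TACI short, beside -0.0029 and 0.026 over all genes tested. Both comparisons use the same 3 controls, so an opposite sign in them is not independent; the direct comparison of the lines uses none. There 30 of the 37 were higher and 4 lower in TACI short, with a median of 1.09 beside 0.046 over all genes. The 34 calls are 91.9% of the 37, against 68.8% of all genes (35.2% higher and 33.6% lower), and 19 of the 37 were higher by at least 1 on the log2 scale, as were 16.1% of all genes. Without TACI short replicates 2 and 3, 30 were higher, 18 of them by at least 1, and 4 lower. In CPM and with all libraries, all 3 TACI long libraries lay below all controls for 29 of the 37 and above them for 7, while 60.7% of all genes had no overlap between these groups. All TACI short libraries lay above all controls for 28 and below for 5 (no overlap in 66.4% of all genes), and above all TACI long libraries for 32 and below for 3 (71.6%). The shares of all genes count both directions together. Because these CPM carry no TMM factors, the 28 include ATF4 and XPOT, whose fitted log2 fold changes were -0.039 and -0.076. The 28 is thus not a count of rises. CPM below are counts over the library total, while fold changes carry TMM factors of 0.965 to 0.980 in TACI long, 1.03 to 1.095 in TACI short and 0.962 to 0.979 in controls. With totals alone, the median over all genes in TACI short against control was 0.15 and 6862 genes were higher and 3779 lower, instead of 5256 and 5179. In TACI short against TACI long, totals alone gave a median of 0.18, with 7214 genes higher and 4359 lower instead of 5870 and 5604. The 37 members then had 28 higher and 5 lower with TACI short against control. Where this shift decides a direction, it is stated.

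**Figure D2:**
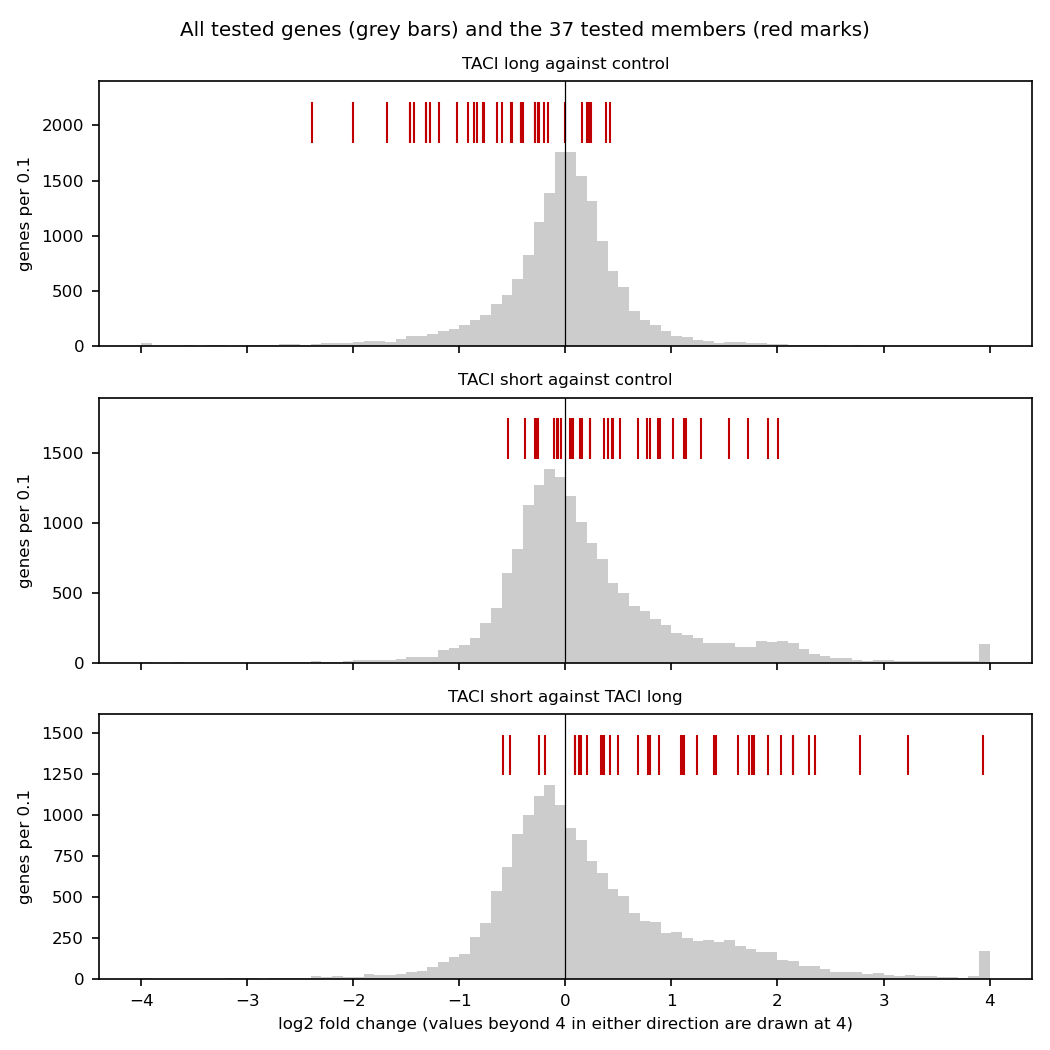
Log2 fold changes of all 16672 genes tested (grey bars, genes per step of 0.1) and of the 37 tested members (red marks) in the 3 comparisons. The members spread to the left with TACI long (lowest -2.39), and to the right with TACI short (highest 2.00) and in TACI short against TACI long (highest 3.94).

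Among the 6 transcription factors, 4 fell and 2 rose with TACI long, and 5 rose with TACI short, also without TACI short replicates 2 and 3. ATF4 (ENSG00000128272, hg38 chromosome 22, 39519695 to 39522685, plus strand) had 212, 225 and 208 CPM in TACI long and 566, 539 and 564 CPM in TACI short, against 531, 520.5 and 517 CPM in the controls. Levels in TACI long were far below both other groups. The log2 fold change was -1.28 ± 0.046 with TACI long (adjusted p = 1.14e-16, edgeR quasi-likelihood test). With TACI short it was -0.039 ± 0.045 and not called (adjusted p = 0.46). All 3 TACI short libraries lay above the controls in CPM, so this value turns on the scaling: it was 0.042 with upper-quartile factors, and 0.089 with library totals (adjusted p = 0.0227, edgeR).

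CEBPB, a C/EBP factor that ATF4 induces and can pair with, had 10.7, 11.1 and 9.99 CPM in TACI long, 43.3, 41.5 and 45.5 CPM in TACI short and 28.8, 28.7 and 30.3 CPM in controls. The 3 groups did not overlap, and CEBPB was 3.75-fold higher in TACI short than in TACI long. DDIT3, which encodes CHOP, a factor induced by ATF4 in prolonged stress, had 6.29, 6.91 and 6.095 CPM in TACI long and 37.6, 36.7 and 33.9 CPM in TACI short, against 17.7, 17.8 and 17.96 CPM in the controls. Its log2 fold changes were -1.47 ± 0.066 with TACI long and 0.89 ± 0.059 with TACI short, and again no groups overlapped. Of its 1266 exon bases, 355 are shared with MARS1 on the other strand, a gene at a mean of 285 CPM, so in this unstranded library type part of its reads cannot be told from those of MARS1.

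ATF3 is a stress-induced factor of the same family that is low in unstressed cells. Counts were few: it had 1.06, 1.03 and 0.742 CPM in TACI long, 5.67, 7.81 and 7.89 CPM in TACI short and 1.28, 2.09 and 1.5002 CPM in controls. TACI short lay above the controls in every library, with a log2 fold change of 2.00 ± 0.18 and a replicate 1 below replicates 2 and 3; without replicates 2 and 3 the change was 1.72. TACI long lay below, at -0.77 ± 0.19.

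ATF5 and CEBPG moved the same way in both lines. ATF5, itself translated under eIF2alpha phosphorylation, had 36.7, 36.4 and 36.6 CPM in TACI long and 36.9, 46.6 and 44.6 CPM in TACI short, against 26.7, 27.5 and 27.8 CPM in the controls. It rose by 0.42 ± 0.057 with TACI long and by 0.51 ± 0.056 with TACI short, and the lines were not called apart (0.091 ± 0.056, adjusted p = 0.148, edgeR); without TACI short replicates 2 and 3 that difference was -0.089. ATF5 shares 626 exon bases with NUP62 on the other strand, which had a mean of 208 CPM. CEBPG, the main dimer partner of ATF4 on amino acid response elements, had 56.4, 60.1 and 57.5 CPM in TACI long, 75.3, 73.1 and 70.9 CPM in TACI short and 52.04, 52.1 and 51.6 CPM in controls. Its rises were small, 0.16 ± 0.047 and 0.37 ± 0.046 on the log2 scale. Per base of exon length, ATF4 stood above the other factors in every group, at 291 ± 14.7 TPM (counts per exon length, scaled to 1e6 in all, mean ± SD, n = 3) in TACI long, 794 ± 21.6 TPM in TACI short and 727 ± 14.3 TPM in controls. The factor next in order was CEBPG in TACI long (44.6 ± 2.08 TPM), followed by ATF5 (42.01 ± 0.530 TPM); it was DDIT3 in TACI short (102 ± 5.91 TPM) and CEBPB in controls (52.3 ± 1.24 TPM), where DDIT3 followed at 49.2 ± 0.213 TPM.

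**Figure D3:**
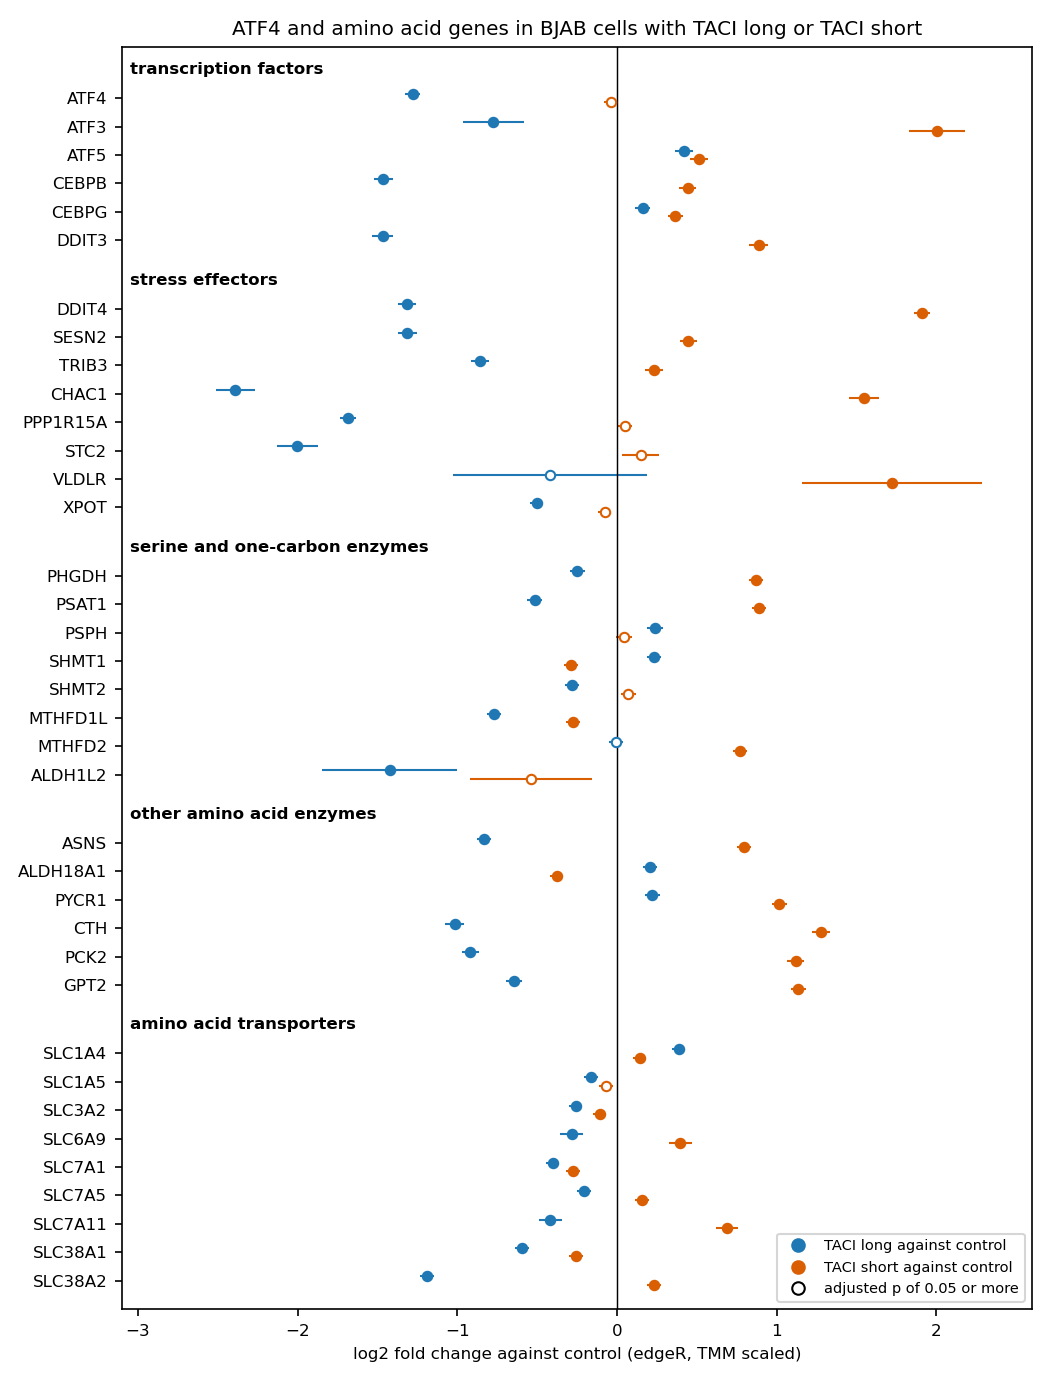
Log2 fold changes against control (x axis) of the 37 tested genes, by role group, for TACI long (blue) and TACI short (orange); bars are approximate standard errors, and open points did not pass the 0.05 threshold. Stress effectors lie left of 0 with TACI long, while ATF4, PPP1R15A, STC2 and XPOT are open points near 0 with TACI short.

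Of the 8 stress effectors, 7 fell with TACI long and none rose, while 5 rose with TACI short and none fell, or 4 and 0 without TACI short replicates 2 and 3. CHAC1 (ENSG00000128965, chromosome 15, 40952962 to 40956519, plus strand), an enzyme that degrades glutathione, had 3.21, 2.39 and 2.99 CPM in TACI long and 51.6, 46.996 and 45.1 CPM in TACI short, against 15.8, 15.7 and 13.5 CPM in the controls. It had the lowest log2 fold change of all members with TACI long (-2.39 ± 0.12, adjusted p = 1.39e-08) and rose by 1.55 ± 0.095 with TACI short (adjusted p = 5.28e-08, edgeR). TACI short was 15.3-fold above TACI long. DDIT4 (ENSG00000168209, chromosome 10, 72273920 to 72276036, plus strand), whose product REDD1 restrains mTORC1, had 14.6, 14.6 and 14.4 CPM in TACI long, 157, 149 and 141 CPM in TACI short and 35.3, 36.96 and 36.5 CPM in controls. Its levels in TACI short were 3.76-fold those of the controls, and those in TACI long 2.49-fold lower than in controls.

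SESN2, a leucine sensor that acts on the mTORC1 pathway, had 10.99, 10.9 and 11.03 CPM in TACI long and 42.3, 40.8 and 38.8 CPM in TACI short, against 28.2, 27.2 and 26.4 CPM in the controls. TRIB3, a pseudokinase that binds and inhibits ATF4, had 37.4, 37.5 and 37.7 CPM in TACI long, 93.4, 84.1 and 84.4 CPM in TACI short and 71.7, 65.1 and 67.6 CPM in controls. Both fell with TACI long, by 1.31 ± 0.058 and 0.86 ± 0.058 on the log2 scale, and rose less with TACI short, by 0.45 ± 0.053 and 0.23 ± 0.056. For neither gene did any of the groups overlap.

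For PPP1R15A and STC2 the controls stood near TACI short. PPP1R15A, which encodes GADD34, the subunit that directs a phosphatase to eIF2alpha, had 15.999, 16.01 and 15.3 CPM in TACI long and 52.7, 61.2 and 58.4 CPM in TACI short, against 49.5, 52.003 and 50.6 CPM in the controls. It fell by 1.68 ± 0.050 with TACI long (adjusted p = 3.78e-18), while TACI short against control gave 0.049 ± 0.046 (adjusted p = 0.357, edgeR), -0.035 without TACI short replicates 2 and 3, and 0.18 with library totals, which was called. STC2, a secreted glycoprotein, had 1.47, 1.27 and 1.14 CPM in TACI long, 6.28, 6.82 and 5.77 CPM in TACI short and 5.22, 5.49 and 4.84 CPM in controls. TACI long was 4.005-fold lower than the controls, and TACI short was not called (0.15 ± 0.12, adjusted p = 0.265, edgeR), although it was with library totals (log2 fold change 0.28).

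XPOT, which exports tRNA from the nucleus, had 121 to 129 CPM in TACI long, 182 to 187 CPM in TACI short and 173 to 181 CPM in controls. It fell by 0.50 ± 0.042 with TACI long and was not called with TACI short (-0.076 ± 0.042), where its sign changed with upper-quartile factors (0.0041) and it was called lower without TACI short replicate 1 (-0.11). VLDLR, a lipoprotein receptor, had 0.874, 0.987 and 0.672 CPM in TACI long and 1.17, 5.48 and 5.73 CPM in TACI short, against 1.17, 1.17 and 1.05 CPM in the controls. Only TACI short replicates 2 and 3 stood apart, the libraries with the higher myeloid marker sums of 169 and 165 CPM. The fitted rise with TACI short was 1.72 ± 0.56 (adjusted p = 0.0348, edgeR) and -0.041 without these replicates. The call was also lost when any single library but TACI short replicate 1 was left out, and with limma-voom (1.45). The part of the myeloid transcripts in this value was not tested.

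**Figure D4:**
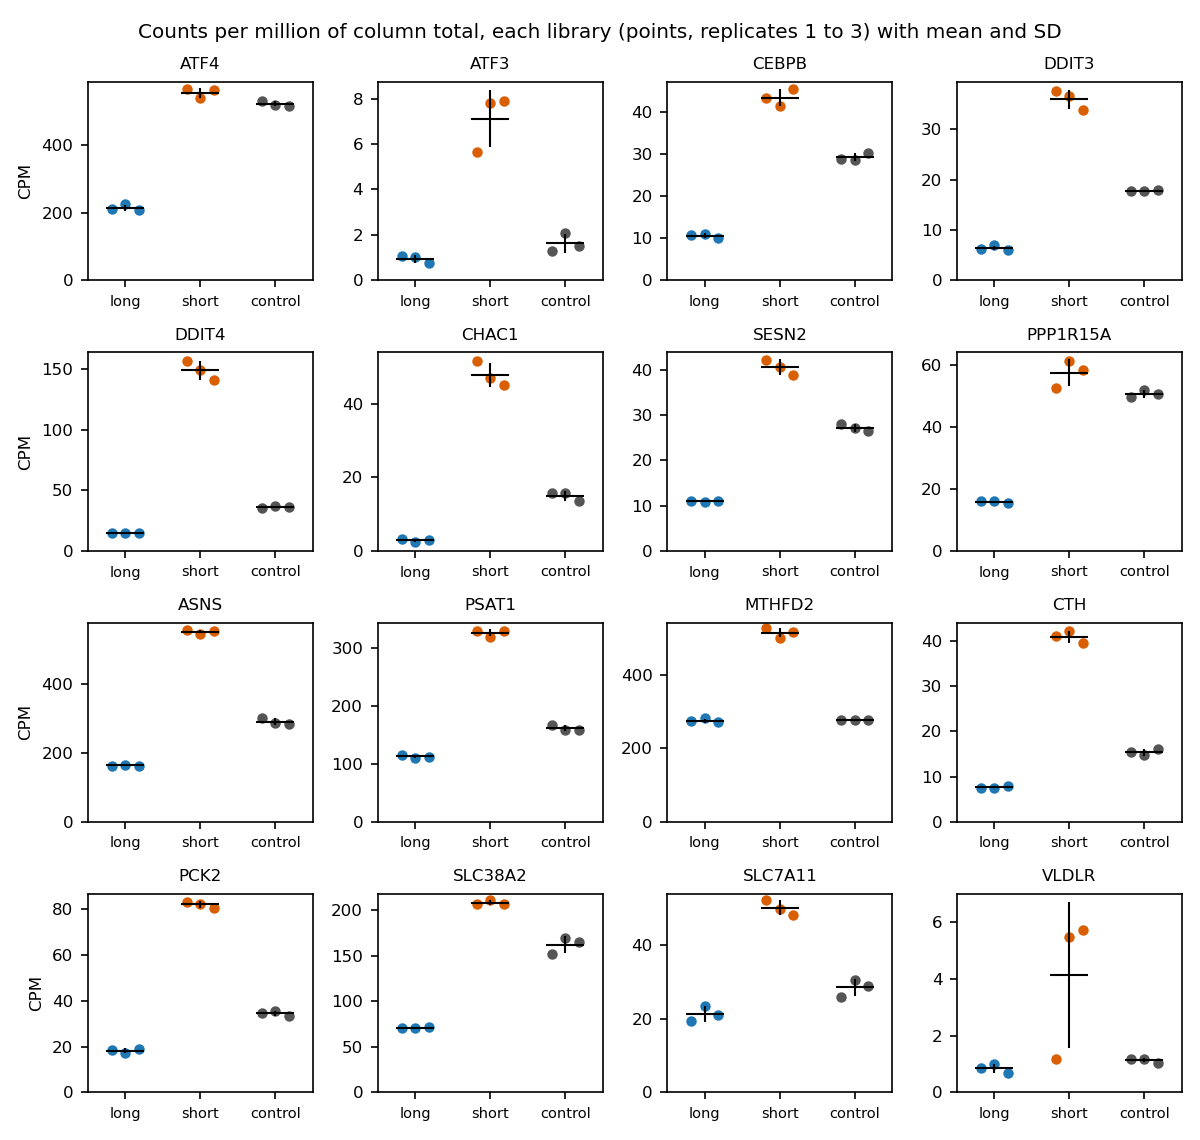
CPM (y axis, counts over the library total, scaled to 1e6, each panel from 0) of 16 members in TACI long, TACI short and control libraries; points are replicates 1 to 3 from left to right, and the line and bar are the mean and SD. In VLDLR, TACI short replicate 1 lies at 1.17 CPM with the controls, while replicates 2 and 3 reach 5.48 and 5.73 CPM.

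The serine and 1-carbon enzymes divided by gene. Of 8, 5 fell and 2 rose with TACI long, and 3 rose and 2 fell with TACI short (4 and 2 without TACI short replicates 2 and 3). With upper-quartile factors or library totals 5 of the 8 were called higher with TACI short, PSPH and SHMT2 being added. Serine is made from a glycolytic intermediate by PHGDH, PSAT1 and PSPH in turn. PHGDH, the first of them, had 144, 138 and 145 CPM in TACI long, 351, 332 and 331 CPM in TACI short and 174, 165 and 169 CPM in controls. PSAT1, which follows it, had 115, 110.4 and 111 CPM in TACI long and 329, 319 and 329 CPM in TACI short, against 166, 158 and 158 CPM in the controls. Both fell slightly with TACI long (-0.25 ± 0.047 and -0.52 ± 0.045) and rose with TACI short, 1.83-fold and 1.85-fold. PSPH, the last step, had 59.8 to 63.9 CPM in TACI long, 57.3 to 60.1 CPM in TACI short and 50.9 to 53.1 CPM in controls; it rose by 0.24 ± 0.048 with TACI long and was not called with TACI short (0.045 ± 0.048, adjusted p = 0.423, edgeR), although it was with library totals (0.17). Its counts are uncertain, since the copy PSPHP1 took 14.1 to 18.9 CPM of reads over the 9 libraries.

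The serine hydroxymethyltransferases, which pass a carbon unit from serine to folate, differed by compartment. The mitochondrial SHMT2 had 486 to 503 CPM in TACI long, 678 to 709 CPM in TACI short and 589.6 to 622 CPM in controls; it fell by 0.28 ± 0.045 with TACI long and was not called with TACI short (0.072 ± 0.045, adjusted p = 0.168), but was called higher without TACI short replicates 2 and 3 (0.14), with upper-quartile factors (0.15), with library totals (0.20) and with the filter of 1 CPM in 3 libraries (0.11). The cytosolic SHMT1 had 76.7, 75.7 and 77.8 CPM in TACI long, 59.7, 57.3 and 58.6 CPM in TACI short and 65.9, 64.7 and 65.6 CPM in controls. It rose by 0.23 ± 0.045 with TACI long and fell by 0.29 ± 0.046 with TACI short, so TACI long was highest and TACI short lowest.

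MTHFD2 and MTHFD1L are successive enzymes of mitochondrial folate metabolism. MTHFD2, the dehydrogenase that many growing cells raise, had 274, 282 and 272 CPM in TACI long and 529, 503 and 518 CPM in TACI short, against 277, 278 and 277 CPM in the controls. It was 1.71-fold higher in TACI short (adjusted p = 3.41e-13), whereas TACI long and control libraries overlapped, with a log2 difference of -0.0047 ± 0.043 (adjusted p = 0.944, edgeR). MTHFD1L, the formate-releasing enzyme, had 97.3, 96.8 and 99.5 CPM in TACI long, 155, 147 and 151 CPM in TACI short and 169.5, 161 and 171 CPM in controls. It fell in both lines, by 0.77 ± 0.046 with TACI long and by 0.27 ± 0.045 with TACI short. ALDH1L2, a mitochondrial enzyme that oxidises formyl-folate, had 0.165, 0.0877 and 0.278 CPM in TACI long and 0.225, 0.570 and 0.300 CPM in TACI short, against 0.500, 0.528 and 0.407 CPM in the controls. These values are 7, 4 and 12 counts in TACI long, 10, 23 and 15 in TACI short and 23, 23 and 19 in controls, and 145 of its exon bases are shared with NOPCHAP1, at a mean of 21.5 CPM. Its fall with TACI long (-1.42 ± 0.42, adjusted p = 0.00699) was lost without TACI long replicate 2 (adjusted p = 0.0616, edgeR), and in TACI short it was not called (-0.54 ± 0.38), with libraries that overlapped the controls.

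Of 6 other amino acid enzymes tested, 4 fell and 2 rose with TACI long, and 5 rose and 1 fell with TACI short, also without TACI short replicates 2 and 3; here no member missed the threshold in either line. ASNS (ENSG00000070669, chromosome 7, 97852118 to 97872542, minus strand), which makes asparagine and is a classical target of ATF4, had 163, 166 and 163 CPM in TACI long, 558, 548 and 556 CPM in TACI short and 303, 288 and 284 CPM in controls. It fell 1.78-fold with TACI long (adjusted p = 1.39e-13) and rose 1.74-fold with TACI short (adjusted p = 1.84e-13, edgeR). CTH, which makes cysteine from cystathionine, had 7.44, 7.54 and 7.83 CPM in TACI long and 41.04, 42.2 and 39.6 CPM in TACI short, against 15.3, 14.7 and 16.2 CPM in the controls. The TACI short libraries were 4.92-fold above TACI long.

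PCK2, the mitochondrial enzyme that makes phosphoenolpyruvate, had 18.6, 17.1 and 19.2 CPM in TACI long, 83.4, 82.5 and 80.7 CPM in TACI short and 34.9, 35.6 and 33.4 CPM in controls. GPT2, the mitochondrial alanine aminotransferase, had 25.7, 26.5 and 24.8 CPM in TACI long and 98.5, 99.1 and 91.8 CPM in TACI short, against 40.2, 39.2 and 41.04 CPM in the controls. As with CTH, groups were fully apart: PCK2 had log2 fold changes of -0.92 ± 0.055 and 1.12 ± 0.051 with TACI long and TACI short, and GPT2 had -0.64 ± 0.050 and 1.14 ± 0.048. CBS, the enzyme before CTH, was not tested. It had 0 counts in 8 libraries and 4 in TACI short replicate 3, and its near-identical copy CBSL had 0 counts in every library. Whether these zeros come from the cells or from the counting of reads that both copies share was not tested.

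The enzymes of proline synthesis did not move together. ALDH18A1, which makes the precursor from glutamate, had 279, 279 and 282 CPM in TACI long, 207, 198 and 207 CPM in TACI short and 241, 238 and 249 CPM in controls. It rose by 0.21 ± 0.043 with TACI long and fell by 0.38 ± 0.043 with TACI short. PYCR1, which completes proline in mitochondria, had 144, 139 and 139.6 CPM in TACI long and 278, 267 and 257 CPM in TACI short, against 125, 118 and 119 CPM in the controls. It rose in both lines, by 0.22 ± 0.047 with TACI long and by 1.02 ± 0.047 with TACI short.

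Among the 9 amino acid transporters, 8 fell and 1 rose with TACI long, and 5 rose and 3 fell with TACI short, or 5 and 2 without TACI short replicates 2 and 3. SLC38A2, which takes up glutamine and small neutral amino acids and is induced when these are missing, had 70.3, 71.04 and 72.1 CPM in TACI long, 207, 211 and 207 CPM in TACI short and 152, 169.6 and 165 CPM in controls. It had the deepest fall of the 9 with TACI long (-1.19 ± 0.044, adjusted p = 2.15e-16, edgeR) and a small rise with TACI short (0.23 ± 0.042). SLC38A1, a close relative with like substrates, had 270.2, 282 and 273 CPM in TACI long and 381, 383 and 377 CPM in TACI short, against 388, 434 and 426 CPM in the controls. It fell in both lines, by 0.60 ± 0.043 and 0.26 ± 0.043.

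SLC7A11, the subunit of the cystine and glutamate exchanger that feeds glutathione synthesis, had 19.3, 23.5 and 21.1 CPM in TACI long, 52.3, 49.8 and 48.2 CPM in TACI short and 25.96, 30.5 and 29.02 CPM in controls. It had the largest fold change of the 9 transporters with TACI short (0.69 ± 0.069) and fell by 0.42 ± 0.072 with TACI long. SLC6A9, a glycine transporter, had 8.46, 8.77 and 7.72 CPM in TACI long and 14.5, 14.9 and 14.4 CPM in TACI short, against 10.04, 10.1 and 10.2 CPM in the controls. Its changes had the same signs, -0.28 ± 0.072 and 0.40 ± 0.070. SLC7A5, the large neutral amino acid carrier LAT1, had 491, 491 and 506 CPM in TACI long, 715, 721 and 656 CPM in TACI short and 570.1, 565 and 583 CPM in controls. It fell by 0.21 ± 0.045 with TACI long and rose by 0.16 ± 0.044 with TACI short; the rise was not called without control replicate 2 (adjusted p = 0.0918, edgeR).

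SLC3A2, the CD98 heavy chain that SLC7A5 and SLC7A11 need at the cell surface, had 206, 205 and 207 CPM in TACI long and 255, 250.2 and 245 CPM in TACI short, against 251, 242 and 247 CPM in the controls. It fell by 0.26 ± 0.042 with TACI long. Its lower call with TACI short (-0.11 ± 0.042, adjusted p = 0.0281, edgeR) rested on the scaling and on single libraries: with library totals the value was 0.020, without TACI short replicates 2 and 3 it was -0.041, and the call was lost without control replicate 1 or 3 or TACI short replicate 2 or 3 (log2 fold change between -0.15 and -0.079 over the libraries left out). SLC7A1, a carrier of arginine and lysine, had 184, 189.5 and 186 CPM in TACI long, 225, 228 and 216 CPM in TACI short and 234, 257 and 249 CPM in controls. It fell by 0.40 ± 0.042 and 0.27 ± 0.042 in the lines.

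SLC1A4, a carrier of alanine, serine and cysteine, had 117, 117 and 119 CPM in TACI long and 109, 110.2 and 107 CPM in TACI short, against 90.04, 90.1 and 90.1 CPM in the controls. It alone among the 9 was higher with TACI long (0.39 ± 0.041); its rise with TACI short (0.14 ± 0.041) was lost without control replicate 2 or 3 (adjusted p = 0.0816 and 0.0699, edgeR). SLC1A5, the glutamine carrier ASCT2, had 276 to 297 CPM in TACI long, 327 to 338 CPM in TACI short and 314 to 328 CPM in controls. It fell by 0.16 ± 0.044 with TACI long, but not without control replicate 1 or TACI long replicate 2 (adjusted p = 0.0560 and 0.0711, edgeR). With TACI short it was not called (-0.070 ± 0.044), although it was called lower without TACI short replicate 1 (-0.11), and its sign changed with library totals (0.059).

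In the direct comparison of the lines, the members higher in TACI short by the greatest factors were CHAC1 (3.94 ± 0.12 on the log2 scale), DDIT4 (3.23 ± 0.055), ATF3 (2.78 ± 0.19), DDIT3 (2.35 ± 0.065), CTH (2.30 ± 0.060), STC2 (2.15 ± 0.13), VLDLR (2.14 ± 0.58) and PCK2 (2.04 ± 0.054). The value of VLDLR was 0.37 and not called without TACI short replicates 2 and 3. ALDH18A1 (-0.59 ± 0.043), SHMT1 (-0.52 ± 0.045), SLC1A4 (-0.25 ± 0.041) and PSPH (-0.19 ± 0.047) were lower in TACI short, PSPH not with library totals (adjusted p = 0.139, edgeR). SLC7A1 was higher by 0.13 ± 0.042, a call that 6 of the 9 single-library omissions ended. ALDH1L2 (0.89 ± 0.44), SLC1A5 (0.090 ± 0.044) and ATF5 (0.091 ± 0.056) were not called. SLC1A5 was called higher in TACI short with library totals (0.22), upper-quartile factors (0.18), the filter of 1 CPM in 3 libraries (0.13) and without TACI short replicates 2 and 3 (0.14). ATF5 was called higher with library totals (0.22), upper-quartile factors (0.18) and without TACI short replicate 1 (0.16). ALDH1L2 was called higher without TACI long replicate 3 (1.35) or TACI short replicate 1 (1.10).

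Promoter sequences were examined because the list includes established targets of ATF4 and many members moved together. ATF4 with a C/EBP partner binds the C/EBP-ATF response element, and its core letters TGATGNAA were searched on both strands of the RefSeq windows (GRCh38.p14), which run from 250 bases before to 50 bases after a start site. Of the 38 genes, 32 had a window, and 10 of these held the letters (31.2%), beside 4.46% of 27305 genes with a window. Members had 1.66 windows a gene and all genes 1.29, so members offered more sequence to match. The list was also made in part of established targets of ATF4, so a higher share is in part a result of that choice. It says nothing about these libraries. A match describes letters and is not evidence of binding, and elements outside the windows, as known for several of these genes, would be missed.

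The 10 matches are shown on the strand of the gene, 5′ to 3′, with up to 11 bases on each side and the match in capitals, so that the element can be compared between genes that moved differently:
ASNS (chr7:97872458-97872487, minus strand): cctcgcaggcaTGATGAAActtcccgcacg
ATF3 (chr1:212565205-212565234, plus strand): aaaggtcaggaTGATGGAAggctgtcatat
CEBPG (chr19:33374060-33374089, plus strand): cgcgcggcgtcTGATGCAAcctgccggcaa
CHAC1 (chr15:40953251-40953280, plus strand): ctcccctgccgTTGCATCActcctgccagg
MTHFD1L (chr6:150866346-150866375, plus strand): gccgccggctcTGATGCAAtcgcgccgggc
SLC1A4 (chr2:64989381-64989410, plus strand): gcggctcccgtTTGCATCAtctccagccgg
SLC1A5 (chr19:46784893-46784922, minus strand): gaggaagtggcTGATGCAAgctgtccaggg
SLC38A1 (chr12:46266502-46266531, minus strand): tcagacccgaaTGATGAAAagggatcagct
SLC3A2 (chr11:62881725-62881748, plus strand): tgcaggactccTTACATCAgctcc
SLC7A1 (chr13:29595663-29595692, minus strand): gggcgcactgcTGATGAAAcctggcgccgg
TGATGAAA or TGATGCAA, or the reverse complement TTGCATCA, occurs in 8 of the 10. ASNS and CHAC1, both lower with TACI long and higher with TACI short, carry these letters as TGATGAAA and TTGCATCA. CEBPG and SLC1A4 carry TGATGCAA and TTGCATCA too and were higher in both lines, while MTHFD1L with TGATGCAA was lower in both. Genes with the letters thus followed each of these patterns. The matches of ASNS, CHAC1, MTHFD1L, SLC1A5, SLC3A2 and SLC7A1 lay in counted exons of the gene. ASNS, ATF3, CEBPG, MTHFD1L, SLC1A4, SLC1A5, SLC38A1 and SLC3A2 also had a window at another start site without the letters. Which start site the RNA came from was not tested. DDIT4, PSAT1, CTH, PCK2 and SLC38A2, whose changes were among the clearest, held none in their windows, which says nothing about ATF4 at elements elsewhere.

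Longer stretches are given for a gene with the letters and one without. For ATF3, the 177 bases of its upstream window before the first counted exon (chr1:212565157-212565333, plus strand) hold the match, in capitals, although the counts cannot say from which of its start sites the RNA came:
ATF3: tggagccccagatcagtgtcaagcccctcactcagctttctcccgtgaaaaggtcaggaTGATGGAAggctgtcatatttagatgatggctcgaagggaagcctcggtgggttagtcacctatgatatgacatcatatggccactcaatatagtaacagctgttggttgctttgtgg
For DDIT4, the 246 bases before the first counted exon (chr10:72273674-72273919, plus strand) hold no match and so have no capitals:
DDIT4: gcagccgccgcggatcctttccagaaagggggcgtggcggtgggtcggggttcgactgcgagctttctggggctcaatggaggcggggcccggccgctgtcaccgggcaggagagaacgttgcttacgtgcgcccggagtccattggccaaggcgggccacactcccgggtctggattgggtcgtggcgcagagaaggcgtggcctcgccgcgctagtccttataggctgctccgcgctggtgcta
ATF3 and DDIT4 had the highest log2 fold changes of all members with TACI short, 2.00 ± 0.18 and 1.91 ± 0.050, and both fell with TACI long.

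The genes around the 38 members were read in 6 further lists that hold none of them. By list, 43.75 to 62.5% of the tested genes were called with TACI long and 40 to 81.25% with TACI short. These shares lay on both sides of those over all genes, 51.1% and 62.6%. Over all genes, 25.2% were called higher and 25.9% lower with TACI long, and 31.5% and 31.1% with TACI short. Parts of the integrated stress response, which are its kinases, eIF2 and eIF2B subunits and further targets, had 18 of 20 genes tested; 3 higher and 8 lower were called with TACI long, and 5 higher and 7 lower with TACI short (4 and 7 without TACI short replicates 2 and 3). VEGFA, the angiogenic growth factor that ATF4 can induce, had 13.02, 12.7 and 12.03 CPM in TACI long, 63.3, 70.7 and 62.4 CPM in TACI short and 68.5, 68.9 and 66.1 CPM in controls. TACI long was far below (-2.43 ± 0.053 on the log2 scale, adjusted p = 7.98e-21, edgeR), while TACI short overlapped the controls in CPM and was called lower by a small amount (-0.18 ± 0.047). GDF15, a secreted stress cytokine, had 6.74, 6.21 and 4.89 CPM in TACI long, 6.12, 33.01 and 29.8 CPM in TACI short and 3.07, 5.99 and 6.13 CPM in controls. Only TACI short replicates 2 and 3, those with the high myeloid marker sums, stood apart, and the rise of 2.04 ± 0.63 (adjusted p = 0.0296, edgeR) was 0.19 without them. Its call was also lost when any 1 of the controls, of TACI long replicates 1 and 2 or of TACI short replicates 2 and 3 was left out (adjusted p up to 0.0946, edgeR); the part of the myeloid transcripts was not tested.

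Other 1-carbon and glycine genes, 16 of 19 tested, had 3 higher and 7 lower with TACI long and 0 higher and 12 lower with TACI short (1 and 11 without TACI short replicates 2 and 3). SARDH, a mitochondrial sarcosine dehydrogenase of very low level, had 0.354, 0.439 and 0.394 CPM in TACI long, 0.203, 0.347 and 0.300 CPM in TACI short and 0.130, 0.115 and 0.193 CPM in controls and rose by 1.42 ± 0.40 with TACI long. In methionine salvage, 5 of 5 genes were tested, with 2 higher and 1 lower with TACI long and 0 higher and 2 lower with TACI short, also without TACI short replicates 2 and 3. MRI1, an isomerase of this route, had 0.213, 0.175 and 0.209 CPM in TACI long, 8.44, 7.96 and 7.65 CPM in TACI short and 7.04, 7.39 and 7.01 CPM in controls. Its log2 fold change with TACI long, -5.15 ± 0.15 (adjusted p = 2.33e-18, edgeR), was larger in size than that of any of the 37 members, and in TACI short it was not called (0.038 ± 0.10).

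Other enzymes of amino acid metabolism, 16 of 18 tested, had 2 higher and 5 lower with TACI long and 7 higher and 6 lower with TACI short, also without TACI short replicates 2 and 3. BCAT1, the cytosolic branched-chain aminotransferase, had 77.6, 81.1 and 79.8 CPM in TACI long, 180.1, 176 and 185 CPM in TACI short and 199, 217 and 214 CPM in controls and fell most with TACI long (-1.40 ± 0.045). KYNU, an enzyme of tryptophan breakdown, had 5.51, 4.69 and 5.21 CPM in TACI long, 11.1, 14.4 and 14.996 CPM in TACI short and 4.46, 5.17 and 5.81 CPM in controls, and AASS, which starts lysine breakdown, had 5.53, 6.18 and 5.45 CPM in TACI long, 11.99, 11.4 and 11.02 CPM in TACI short and 4.65, 5.395 and 4.801 CPM in controls. These 2 rose by 1.26 ± 0.11 and 1.09 ± 0.091 with TACI short. Other amino acid transporters, 15 of 19 tested, had 3 higher and 4 lower with TACI long and 6 higher and 6 lower with TACI short (4 and 7 without TACI short replicates 2 and 3). SLC38A5, a relative of SLC38A1, had 0.473, 0.307 and 0.278 CPM in TACI long, 0.765, 1.34 and 1.88 CPM in TACI short and 0.826, 0.597 and 0.793 CPM in controls, with a log2 fold change of -1.07 ± 0.32 with TACI long. SLC7A8, a relative of SLC7A5, had 2.69, 2.17 and 2.22 CPM in TACI long, 5.198, 11.6 and 10.1 CPM in TACI short and 1.98, 2.94 and 2.61 CPM in controls; its rise of 1.70 ± 0.30 with TACI short was 0.96 without TACI short replicates 2 and 3.

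Of the genes that pass amino acid supply to mTORC1, 20 of 20 were tested, with 4 higher and 8 lower with TACI long and 3 higher and 8 lower with TACI short, also without TACI short replicates 2 and 3. CASTOR1, an arginine sensor of low level, had 0.449, 0.417 and 0.371 CPM in TACI long, 0.968, 1.04 and 0.859 CPM in TACI short and 0.109, 0.230 and 0.193 CPM in controls. It rose by 1.21 ± 0.34 with TACI long and by 2.29 ± 0.32 with TACI short. SESN3, a relative of SESN2, had 0.142, 0.197 and 0.0927 CPM in TACI long, 0.135, 1.22 and 0.739 CPM in TACI short and 0.0217, 0.230 and 0.0857 CPM in controls. The 3 TACI short libraries did not separate from the controls as a group: the rise of 2.47 ± 0.85 (adjusted p = 0.0327, edgeR) was 0.19 without replicates 2 and 3. Its call was also lost when control replicate 1 or 3, TACI long replicate 1 or 3, or TACI short replicate 2 or 3 was left out (adjusted p up to 0.104, edgeR).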

How the data were processed

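RNA of 9 BJAB libraries, 3 in each of 3 groups taken from the sample titles, was read as raw counts per gene that the authors deposited, 1 table per library. Per the submitters' processing notes, FastQC, STAR 2.4.0h, HTSeq and the hg38 build were used. Counting settings are not given in the sources used here, and per the file headers the columns have gene coordinates and exon length beside the counts. Per the labels' protocols, the Nextera XT kit was used, and it does not mark strand. Genes were named from a separate list of gene names and, where it lacked the ID, from GENCODE release 29. That release held 56898 of the 57500 IDs.

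From these counts, CPM was computed on library totals (40322136 to 50079203) and TPM on the exon lengths in the files. All 9 libraries entered 1 edgeR 4.0.16 quasi-likelihood fit in R 4.3.3 with TMM scaling, after filterByExpr (minimum count 10, total 15) kept 16672 genes; p-values were adjusted over all of them by Benjamini and Hochberg, with a threshold of 0.05. Standard errors (± beside log2 fold changes) are approximate, from the fold change and its F value. CPM and TPM carry SDs over 3 libraries where given.

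The 38 members and the further lists were chosen with earlier results of these data known. CPM per library is printed for members called against control in both lines or changed by at least 1 on the log2 scale in a comparison; genes of the further lists are named where called with such a change, except 1 that is not reported here. Alternatives were DESeq2 1.42.0 (Wald test and size factors), voom in limma 3.58.1, upper-quartile and total scaling, other filters, groups fitted alone, the replicate number as a block, and leaving out libraries. Promoter sequences are RefSeq's for GRCh38.p14. No 2 libraries were the same within sampling noise. No sample was dropped or imputed in the 9-library fit.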

Additional observations from a re-analysis of the deposited data

How the results depend on the processing

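Each of the 111 log2 fold changes of members was recomputed under up to 19 alternatives, and 90 of them kept direction and call under every alternative that could be run. Counts called over all members, and over all genes, stayed within 1.5 times the values above under all alternatives; when libraries were left out singly, genes called ranged from 7308 to 9142 (TACI long against control), 9647 to 11588 (TACI short against control) and 10786 to 12661 (TACI short against TACI long). Counts of single lists moved by more: with upper-quartile factors or library totals, higher calls with TACI short were 5 among serine and 1-carbon enzymes (3 with TMM scaling), 8 among stress response parts (5) and 6 among mTORC1 sensing genes (3), 2 or 3 among other 1-carbon genes (0) and 1 in methionine salvage (0). With no filter, transporters higher with TACI short were 3 (5), and with TACI long other amino acid metabolism had 1 higher and 3 lower (2 and 5) and mTORC1 sensing 5 lower (8). With libraries left out singly, these counts went down to 3 higher transporters without control replicate 2, to 0 higher and 3 lower in other amino acid metabolism without control replicate 3 or TACI long replicate 3 (1 higher without TACI long replicate 1), and to 4 lower sensing genes without TACI long replicate 3 (5 without control replicate 2 or TACI long replicate 1); 1 stress effector, XPOT, was lower with TACI short without TACI short replicate 1 and 1 other 1-carbon gene higher without TACI short replicate 2. Values that changed sign were small, apart from VLDLR, and their causes were not tested unless the setting itself shows them. MTHFD2 with TACI long was 0.0042 with DESeq2 size factors and with its Wald test, 0.00036 with no filter and 0.0046 without TACI short replicates 2 and 3, and ranged from -0.010 to 0.0037 when libraries were left out singly. With TACI short against control, upper-quartile factors gave ATF4 0.042, XPOT 0.0041 and SLC1A5 0.011, and library totals gave ATF4 0.089, XPOT 0.052, SLC1A5 0.059 and SLC3A2 0.020. Without TACI short replicates 2 and 3, VLDLR was -0.041, PPP1R15A -0.035, ATF4 0.024 and, against TACI long, ATF5 -0.089; ATF4 ranged from -0.076 to 0.013 when libraries were left out singly. Same-numbered libraries deviated from their group means with correlations from -0.272 to 0.434, and differently numbered ones from -0.389 to 0.346. The numbers were therefore not taken to pair the samples. Between control and TACI short, replicates 1, 2 and 3 had 0.434, 0.213 and 0.177 with their own number. Replicate 1 of either group had -0.389 to -0.247 with replicates 2 and 3 of the other. Whether these libraries share a batch was not tested. With the replicate block, 35, 28 and 35 members were called with TACI long, with TACI short and in TACI short against TACI long (35, 29 and 34 without). VLDLR then lost its call with TACI short (1.58, adjusted p = 0.0797, edgeR) and SLC1A5 was called between the lines (0.090, adjusted p = 0.0365, edgeR). The 3 libraries of a group may be technical repeats. A change from TMM scaling to library totals moved values of TACI short by more than 0.1 on the log2 scale. Against control, SLC3A2 went from -0.11 to 0.020 and SHMT2 from 0.072 to 0.20. Differences of that size or less with TACI short may thus rest on the scaling. ALDH1L2, ATF3, VLDLR and STC2 had few counts, and precision is lowest there.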
